A study of Mus musculus with 24 samples.

Results

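Caseins are the main proteins of milk, and in the mouse they are encoded by the genes Csn1s1, Csn2, Csn1s2a, Csn1s2b and Csn3. These 5 genes were taken as the probe sets whose only symbol in the platform annotation is 1 of those names, with the probe set of highest mean over the arrays standing for a gene. Each of the 5 has a single such probe set, so 5 of the 22180 genes with a symbol of their own are described here. All 5 are also among the 15234 genes tested, which lay above the median of their array on at least 3 arrays. Csn1s1, Csn2, Csn1s2a and Csn3 met this on all 24 arrays. Csn1s2b met it on 13 arrays, none of them from virgins, so it entered the tests only because it is high at later stages. Its differences from virgins are therefore given as a description, and counts of caseins are given with and without it.

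The series holds 24 single-colour arrays of mouse RNA, 12 labelled wild type and 12 labelled mutant, with 3 arrays in each of 8 groups. Both genotypes were sampled at the codes V, called virgin in the titles, dp12, dp18 and Lac10, read here as days of pregnancy and of lactation although the design text speaks of months. All groups share a mixed background of FVB, 129SVEV and Black Swiss and growth in the same animal facility. The title of the series concerns BRCA1, a tumour suppressor of DNA repair, in pregnancy, but the labels name no allele, promoter, tissue or age, and the mutant titles read Br-M with a number. A treatment text describes a pull-down of RNA with a tagged PAB-1 protein, which differs from the total RNA by Trizol named in the same labels, and applies to all groups alike.

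Caseins are made by the luminal cells of the mammary alveoli. The alpha-s1 casein gene Csn1s1, the beta-casein gene Csn2 and the alpha-s2-type genes Csn1s2a and Csn1s2b encode calcium-sensitive caseins, which bind calcium phosphate through phosphorylated serines. The kappa-casein gene Csn3 encodes the protein that coats casein micelles and keeps them in suspension. Transcription of these genes is known to depend on prolactin, whose receptor activates the kinase JAK2 and the factor STAT5, together with the glucocorticoid receptor, C/EBP beta and the factor ELF5.

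The promoters are shown because the STAT5 site is the best known control element of casein genes. RefSeq promoter windows on build GRCm38.p6 were matched for 3 of the 5 genes, Csn1s1 at chr5:87665958-87666257 on the plus strand, Csn2 at chr5:87699376-87699675 on the minus strand and Csn1s2a at chr5:87774200-87774499 on the plus strand. Each window runs from 250 bases before the annotated start to 50 bases after it and is written 5′ to 3′, with the match to the STAT5 motif TTCNNNGAA in capitals.
Csn1s1: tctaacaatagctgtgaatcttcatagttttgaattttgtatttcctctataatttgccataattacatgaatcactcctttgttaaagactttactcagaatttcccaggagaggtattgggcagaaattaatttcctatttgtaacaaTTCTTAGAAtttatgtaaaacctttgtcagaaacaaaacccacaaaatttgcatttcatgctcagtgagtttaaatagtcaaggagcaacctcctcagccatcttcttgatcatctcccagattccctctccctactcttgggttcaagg
Csn2: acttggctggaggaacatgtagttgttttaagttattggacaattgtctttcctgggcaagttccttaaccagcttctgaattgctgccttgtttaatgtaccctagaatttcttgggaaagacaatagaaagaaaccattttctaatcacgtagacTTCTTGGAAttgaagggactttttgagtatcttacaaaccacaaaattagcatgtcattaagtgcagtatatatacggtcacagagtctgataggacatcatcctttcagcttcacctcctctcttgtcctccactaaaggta
Csn1s2a: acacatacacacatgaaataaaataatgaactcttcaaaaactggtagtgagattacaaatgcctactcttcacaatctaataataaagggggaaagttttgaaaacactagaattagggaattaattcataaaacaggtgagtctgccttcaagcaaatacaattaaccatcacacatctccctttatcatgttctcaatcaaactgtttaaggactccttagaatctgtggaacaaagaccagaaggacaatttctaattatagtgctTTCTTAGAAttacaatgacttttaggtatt

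Each of these windows holds the motif once, and 8.30% of all 32851 RefSeq promoter windows of the same length hold it on either strand; the motif reads the same on both. The match begins 100 bases before the start in Csn1s1, 93 bases before it in Csn2 and at base 21 after it in Csn1s2a. Csn1s1 and Csn1s2a carry the same 9 letters, TTCTTAGAA, and Csn2 carries TTCTTGGAA. The C/EBP motif TTNNGNAA, searched on both strands like the others, is present in all 3 windows and in 40.7% of all windows. The partial glucocorticoid receptor site TGTTCT is present in Csn1s2a (19.0% of all windows), and the octamer ATTTGCAT lies 54 bases before the start of Csn1s1 (1.74% of all windows). No match to TATAAA was found in the 3 windows, against 13.6% of all windows. A match describes letters and not binding, which was not measured.

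Levels below are log2 values from the robust multi-array average (RMA), differences are log2 differences with their standard error (SE) from the fit, and a difference passed where limma's adjusted p over all 15234 genes was below 0.05. The titles number the arrays and give most a body weight, and most dp18 and Lac10 titles hold a colour word in brackets, whose meaning they do not state. At Lac10 the words are white, brown and brown in wild type and white, golden and white in mutants. Each mutant title carries a number of its own. No label states that arrays come from different animals, and the p-values given here measure spread from array to array. In a sample of whole tissue, fewer cells of a type and less RNA per cell cannot be told apart. Array medians ran from 5.31 to 5.62 and the highest probe set of an array from 13.3 to 13.5. Against the other 23 arrays, 3 arrays had a median correlation below 0.9, at 0.837 for wild-type dp18 replicate 1, 0.863 for mutant dp18 replicate 1 and 0.799 for mutant Lac10 replicate 2.

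A pair of arrays went against their labels on Csn1s2b and Krt18, but not on every gene looked at. The array labelled wild-type Lac10 replicate 1 had Csn1s2b at 6.47, against 11.47 and 11.24 on the other Lac10 arrays of wild type, and the luminal keratin gene Krt18 at 11.14 against 9.44 and 9.55. Both of its values lay within the range of the wild-type dp18 arrays. Its Elf5 level of 9.40 instead lay within its own group (9.29 and 9.57) and above the wild-type dp18 arrays (8.42 to 8.63). Its title also differs, with 28 g and white against 39 g and brown on both other arrays of its group. The part of these traits was not tested. The array labelled mutant dp18 replicate 2 had Csn1s2b at 10.37 and Krt18 at 8.27. The other mutant dp18 arrays had 6.30 and 5.93 for Csn1s2b and 10.51 and 11.41 for Krt18. For the gene Olah, at 10.33, replicate 2 lay between those arrays (10.21 and 10.84). Mutant Lac10 replicate 1 also departed from its group, with Csn1s2b at 8.19 against 10.43 and 11.32 and Krt18 at 11.64 against 6.79 and 8.58, and was not set apart. Since Csn1s2b was among the genes that set the pair apart, its values without them are a description with no test. Results that rest on these arrays are given with and without them.

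The 5 genes fell into patterns that differed in how much room the array left for a rise. Csn2 was near the top of the array from dp12 on, and Csn1s1 and Csn1s2a were not far below it. Csn1s2b ran from below the array median in virgins to a best rank of 202 among 41345 probe sets at Lac10, and Csn3 ranked between 172 and 1726 throughout. No casein gene passed as different between the genotypes at any stage.

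**Figure D1:**
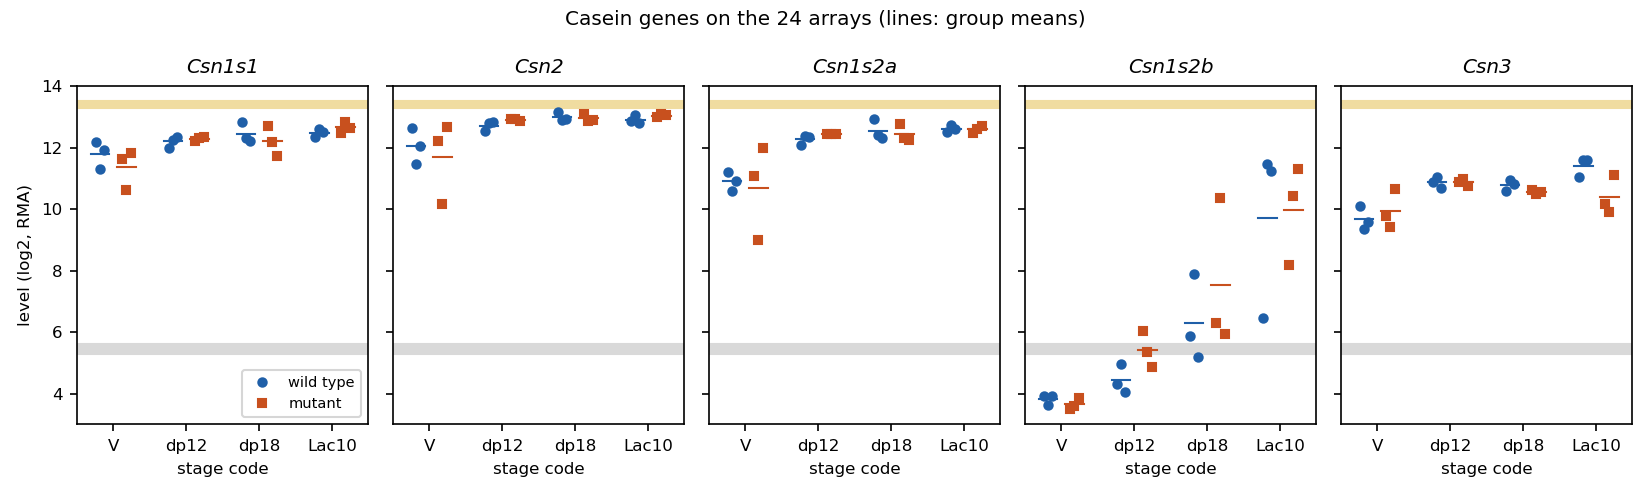
Log2 RMA level of each casein gene on the 24 arrays by stage code, wild type as blue circles and mutant as orange squares, with a line at each group mean. The grey band is the range of the array medians (5.31 to 5.62) and the yellow band that of the array maxima (13.3 to 13.5); Csn2 lies between 12.54 and 13.17 from dp12 on, while Csn1s2b spans 3.52 to 11.47.

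Csn2 was already high in virgins. Its level was 12.63, 11.48 and 12.05 on the wild-type V arrays and 12.22, 10.17 and 12.69 on the mutant V arrays. At dp12 it was 12.54, 12.79 and 12.83 in wild type and 12.94, 12.93 and 12.87 in mutants. The virgin arrays were spread over more than 2 log2 units in mutants, with replicate 2 far below the others, and the dp12 arrays lay close together. The wild-type V and dp12 groups overlapped, while every mutant dp12 array was above every mutant V array.

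No later step passed for Csn2. The levels were 13.17, 12.91 and 12.94 at dp18 and 12.86, 13.07 and 12.82 at Lac10 in wild type. The mutant arrays gave 13.11, 12.89 and 12.91 at dp18 and 13.00, 13.09 and 13.05 at Lac10. The dp18 and Lac10 arrays of the genotypes overlapped. At dp12 every mutant array lay above every wild-type array, by a mean difference of 0.19 (SE 0.40) that did not pass. The share of all genes with groups so apart was not counted. Csn2 was higher at Lac10 than at V, by 0.86 in wild type (SE 0.40, adjusted p = 0.189) and 1.36 in mutants (SE 0.40, adjusted p = 0.0650), and neither difference passed in limma. Leaving out single arrays moved the mutant difference between 0.60 without mutant V replicate 2 (adjusted p = 0.252) and 1.85 without mutant V replicate 3 (adjusted p = 0.0211), and it passed only in the latter case.

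The position of Csn2 near the top of the range limits what these differences can show. From dp12 on, its probe set ranked between 8 and 27 among 41345 on its array and lay 0.23 to 0.75 log2 units below the highest one. In virgins the rank ran from 13 to 846, and the distance from 0.64 to 3.22. Csn1s2a ranked between 24 and 84 and Csn1s1 between 28 and 138 from dp12 on, so these too sat within 1.58 units of the top. A rank depends on how well a probe set binds as well as on the transcript, and a change in transcript level above the range of the array would not be seen in these values.

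**Figure D2:**
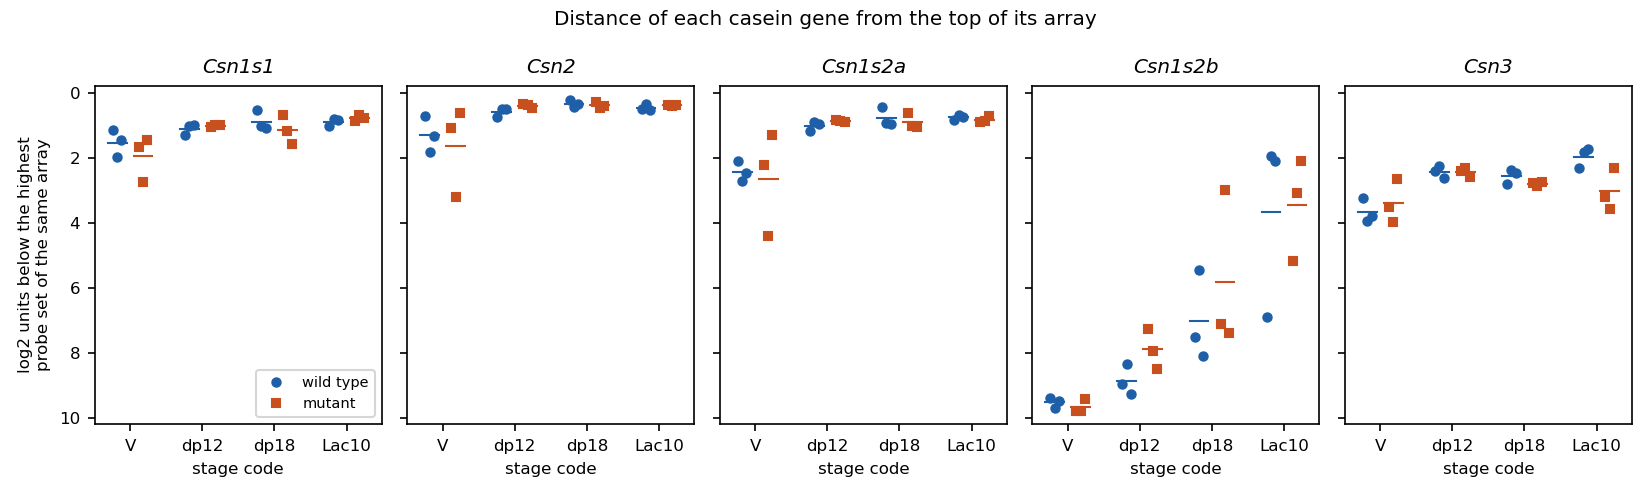
Distance in log2 units of each casein gene below the highest probe set of the same array, by stage code, with 0 at the top of the axis as the highest probe set; blue circles are wild type, orange squares mutant and lines group means. Csn2 lies 0.23 to 0.75 below the top from dp12 on, and Csn1s2b moves from 9.40 to 9.79 below it in virgins to as near as 1.97 at Lac10.

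Csn1s1 had the narrowest range of the 5 genes, 10.64 to 12.85. The level was 12.18, 11.33 and 11.93 in wild-type virgins and 11.64, 10.64 and 11.85 in mutant virgins. At Lac10 it was 12.34, 12.62 and 12.52 in wild type and 12.50, 12.83 and 12.66 in mutants. The V and Lac10 groups did not overlap in either genotype, and mutant V replicate 2 was again the lowest array.

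The rise of Csn1s1 from V to Lac10 passed in mutants, at 1.28 (SE 0.29, adjusted p = 0.0256, limma). It was 0.92 and no longer passed without mutant V replicate 2 (adjusted p = 0.159), and 1.20 without mutant Lac10 replicate 2 (adjusted p = 0.146). In wild type the difference was 0.68 (SE 0.29) with an adjusted p of 0.155. The mutant rise exceeded the wild-type one by 0.60 (SE 0.41), which did not pass (adjusted p = 0.310).

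Between these stages Csn1s1 stayed in a narrow band. It was 11.99, 12.27 and 12.35 at dp12 and 12.85, 12.30 and 12.21 at dp18 in wild type. In mutants it was 12.23, 12.31 and 12.34 at dp12 and 12.71, 12.18 and 11.74 at dp18. The dp12 and dp18 groups overlapped in both genotypes, and no step between neighbouring stages passed for Csn1s1.

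Csn1s2a was high from dp12 on. Its level was 11.22, 10.60 and 10.93 in wild-type virgins and 11.09, 8.99 and 12.00 in mutant virgins. At dp12 it was 12.10, 12.39 and 12.36 in wild type and 12.46, 12.43 and 12.46 in mutants. Every dp12 array lay above every V array of its genotype, and the mutant dp12 arrays differed from each other by far less than the mutant virgins did. The mutant dp12 arrays also lay above every wild-type dp12 array, by a mean difference of 0.17 (SE 0.44) that did not pass.

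The rise of Csn1s2a from V to dp12 was 1.75 in mutants (SE 0.44, adjusted p = 0.0253), which passed in limma; the wild-type difference of 1.37 (SE 0.44, adjusted p = 0.0635) did not. Over V to Lac10 the gene rose by 1.70 in wild type (adjusted p = 0.0233) and 1.91 in mutants (adjusted p = 0.0286). These calls depended on single arrays. Without mutant V replicate 2 the mutant differences were 0.90 to dp12 (adjusted p = 0.110) and 1.05 to Lac10 (adjusted p = 0.0935). The mutant dp12 call was also lost without any of the 3 mutant dp12 arrays, and the mutant Lac10 call without mutant V replicate 1 or Lac10 replicate 2. In wild type the Lac10 call was lost without V replicate 2 or 3 or Lac10 replicate 2 or 3, with adjusted p from 0.0780 to 0.0957. It was also lost with housekeeping centring, at 1.23 (adjusted p = 0.124), and without the 2 arrays against their labels, at 1.75 (adjusted p = 0.0507). With housekeeping centring the mutant dp12 difference was 1.26 (adjusted p = 0.0929), and without the 3 arrays of low correlation the mutant Lac10 difference was 1.90 (adjusted p = 0.0582).

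After dp12 Csn1s2a did not pass in any step. The wild-type values were 12.95, 12.41 and 12.32 at dp18 and 12.52, 12.74 and 12.61 at Lac10. The mutant values were 12.79, 12.32 and 12.25 at dp18 and 12.49, 12.62 and 12.70 at Lac10. The stages overlapped in both genotypes, with replicate 1 the highest array at dp18 in each; these are also the dp18 arrays of low correlation named above.

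Csn1s2b, the other alpha-s2-type gene, had the widest range of the 5. Its level was 3.94, 3.62 and 3.92 in wild-type virgins and 3.52, 3.60 and 3.88 in mutant virgins. At dp12 it was 4.31, 4.96 and 4.06 in wild type and 6.05, 5.37 and 4.86 in mutants. All 6 virgin arrays lay below the median of their array and below every dp12 array, and the genotypes overlapped at both stages.

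From dp18 on the spread between arrays of a group became wide. In wild type Csn1s2b was 5.87, 7.89 and 5.20 at dp18 and 6.47, 11.47 and 11.24 at Lac10. Mutant arrays gave 6.30, 10.37 and 5.93 at dp18 and 8.19, 10.43 and 11.32 at Lac10. The high dp18 array of mutants and the low Lac10 array of wild type are those that went against their labels, and with them the dp18 and Lac10 groups overlapped in both genotypes.

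Csn1s2b was higher at Lac10 than at V by 5.90 in wild type (SE 1.13) and by 6.31 in mutants (SE 1.13). The virgin values lay below the array median, no detection call was used, and no linear fold is given. In the fit of all 22180 genes with no filter on dim genes, which does not depend on the later stages, limma's adjusted p was 0.00593 in wild type and 0.00835 in mutants. Leaving out single arrays gave 5.03 to 7.53 in wild type, the highest without Lac10 replicate 1, and 5.64 to 7.21 in mutants. The difference between the genotypes in this change was 0.41 (SE 1.60), with a 95% interval from -2.92 to 3.74. It had no settled sign, at -1.22 without wild-type Lac10 replicate 1 and 1.31 without mutant Lac10 replicate 1.

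The step of Csn1s2b from dp18 to Lac10 did not pass with all arrays, at 3.41 in wild type (SE 1.13, adjusted p = 0.431) and 2.45 in mutants (SE 1.13, adjusted p = 0.987). Leaving out single arrays gave 2.54 to 5.04 in wild type and 1.65 to 3.87 in mutants, the upper ends without wild-type Lac10 replicate 1 and mutant dp18 replicate 2. Among these fits the wild-type step passed only without Lac10 replicate 1 (adjusted p = 0.0146), an array set apart for its low Csn1s2b, and no support is drawn from that call.

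Csn3 was the casein gene with a genotype difference farthest from 0 relative to its error. Its level was 10.09, 9.35 and 9.59 in wild-type virgins and 9.78, 9.42 and 10.65 in mutant virgins. At dp12 it was 10.88, 11.04 and 10.70 in wild type and 10.88, 10.98 and 10.76 in mutants. The genotypes overlapped at both stages, and all dp12 arrays lay above all V arrays of their genotype.

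The Csn3 means of the genotypes lay farthest apart at Lac10, where the groups still overlapped. At dp18 Csn3 was 10.59, 10.95 and 10.83 in wild type and 10.63, 10.49 and 10.57 in mutants. At Lac10 it was 11.04, 11.60 and 11.62 in wild type and 10.18, 9.93 and 11.10 in mutants. The mutant Lac10 replicate 3 array reached the lower end of the wild-type group, and the other mutant Lac10 arrays lay below every dp18 array of either genotype.

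Csn3 rose in wild type from V to dp12 by 1.20 (SE 0.30, adjusted p = 0.0275) and from V to Lac10 by 1.74 (SE 0.30, adjusted p = 0.00188). The first of these was no longer called when any of these arrays except wild-type V replicate 1 was left out, with adjusted p between 0.0584 and 0.112. In mutants the differences were 0.92 (SE 0.30, adjusted p = 0.0925) from V to dp12 and 0.45 (SE 0.30, adjusted p = 0.343) from V to Lac10. Leaving out single arrays moved the mutant V to dp12 difference between 0.66 without mutant V replicate 2 (adjusted p = 0.504) and 1.27 without mutant V replicate 3 (adjusted p = 0.0211), with a call only in the latter case. The mutant V to Lac10 difference ran from 0.10 without mutant Lac10 replicate 3 to 0.80 without mutant V replicate 3. With housekeeping centring the wild-type V to dp12 difference was 0.71 (adjusted p = 0.138).

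At Lac10 Csn3 was lower in mutants by a log2 difference of -1.02 (SE 0.30, 95% interval -1.64 to -0.39), which did not pass over all genes (adjusted p = 0.104). Without mutant Lac10 replicate 3 it was -1.36 with an adjusted p of 0.0108, in a fit that called 9.12% of all genes, and without mutant Lac10 replicate 2 it was -0.78 (adjusted p = 0.682). The genotype difference in the change from V to Lac10 was -1.29 (SE 0.42, adjusted p = 0.0792), and it ran from -0.94 without mutant V replicate 3 to -1.64 without mutant Lac10 replicate 3. The latter fit gave Csn3 an adjusted p of 0.0128 and called 25.1% of all genes, against 0.0197% with all arrays. With each array centred on housekeeping genes the Lac10 difference was -0.36 (adjusted p = 0.345, limma). That centring moved the median of all genes by 0.65 in this comparison. Without the 3 arrays of low correlation the Csn3 difference was -0.78 (adjusted p = 0.329).

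Markers of the cells that make casein varied on the same Lac10 arrays. The mean level of 16 luminal epithelium markers ran from 8.00 to 8.95 in wild-type Lac10 and from 6.30 to 9.20 in mutant Lac10, and that of 10 adipocyte markers from 6.88 to 7.75 and from 6.74 to 9.63. No luminal or adipocyte marker passed between genotypes at Lac10 (0 of 16 and 0 of 10, limma), beside 0.236% of all genes. Krt18 was at 11.64, 6.79 and 8.58 on mutant Lac10 replicates 1, 2 and 3, while Csn3 was lowest on replicate 2 and Csn2 was as high there as on the others. The part of these cells in the Csn3 difference was not tested.

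The other 4 genes showed no genotype difference that passed at any stage, and the intervals were of unequal width. The Lac10 difference was 0.17 for Csn1s1 (95% interval -0.44 to 0.77), 0.13 for Csn2 (-0.70 to 0.97) and -0.02 for Csn1s2a (-0.94 to 0.91). With housekeeping centring, which moved the median of all genes by 0.65, these were 0.82, 0.79 and 0.64, none of them past the threshold. For Csn1s2b it was 0.25 with an interval from -2.10 to 2.61, at -1.38 without wild-type Lac10 replicate 1 and 1.15 without mutant Lac10 replicate 1. In virgins the largest difference was -0.44 in Csn1s1 (interval -1.04 to 0.17). At dp12 the differences ran from 0.00 in Csn3 to 0.98 in Csn1s2b, where the interval was -1.37 to 3.34. That interval rests on 1 spread over all 8 groups. The standard deviation of Csn1s2b was 0.47 and 0.60 at dp12 but 2.82 and 1.61 at Lac10 (wild type and mutant). With only the dp12 arrays its SE was 0.31, and the difference did not pass. At dp18 Csn1s2b differed by 1.21 (interval -1.14 to 3.57), and by -0.20 without mutant dp18 replicate 2.

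**Figure D3:**
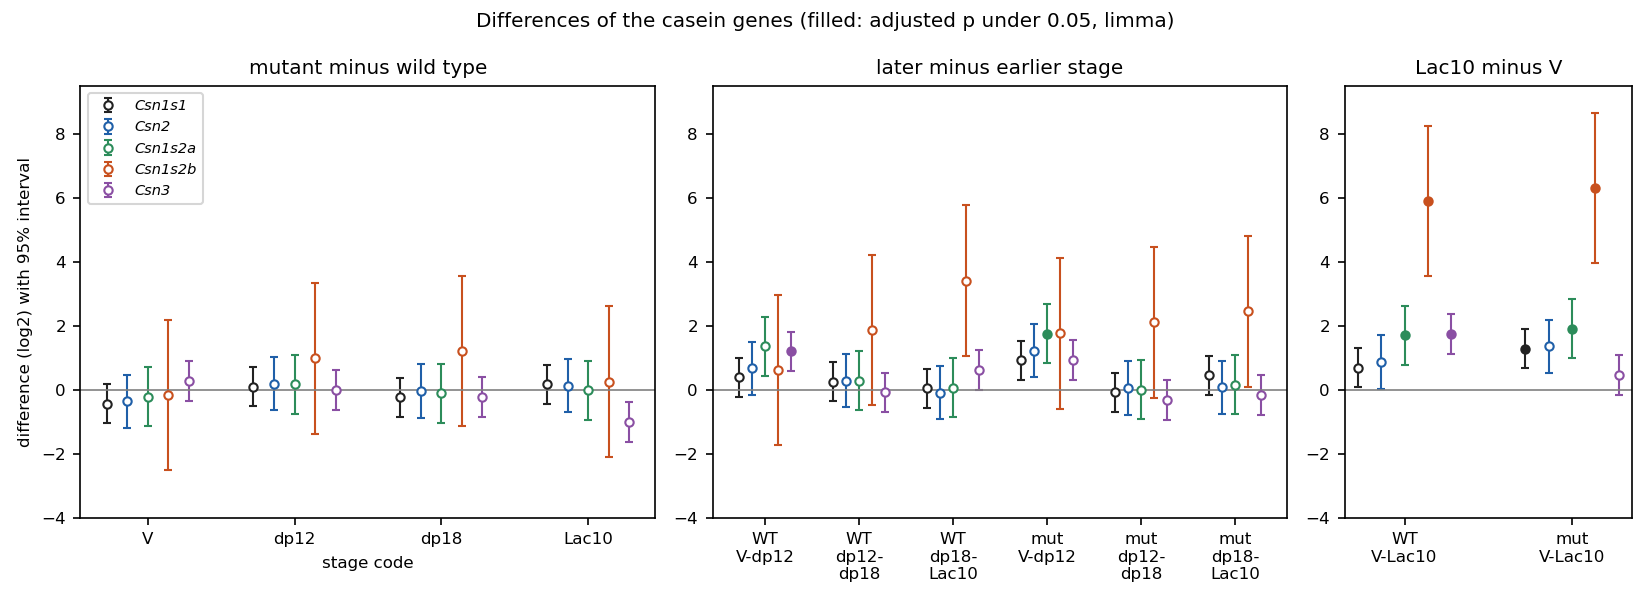
Log2 differences of the 5 casein genes with 95% intervals, as mutant minus wild type at each stage code (left), later minus earlier stage within a genotype (middle, WT for wild type and mut for mutant) and Lac10 minus V (right); filled points have an adjusted p under 0.05 in limma. No genotype difference is filled, Csn3 at Lac10 lies at -1.02, and Csn1s2b has the widest intervals and the largest rises, 5.90 and 6.31.

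The counts of called casein genes ran from 0 to 3 of 5 and are read against the share of all genes called. Between genotypes limma called 0 of 5 at V (0.0263% of all genes), 0 of 5 at dp12 (0%), 0 of 5 at dp18 (0%) and 0 of 5 at Lac10 (0.236%). It called 0 of 5 for the average over stages (0%), for equality of the genotype differences over stages by the moderated F test (0.00656%) and for the genotype difference in the change from V to Lac10 (0.0197%). At an unadjusted p under 0.05 the counts were 1 of 5 at Lac10, 1 in the F test and 1 for the change from V to Lac10, each time Csn3, and 0 for V, dp12, dp18 and the average. The shares of all genes at that threshold were 17.6%, 12.4% and 30.8%, so 1 of 5 does not stand out from them.

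Within wild type limma called 1 of 5 from V to dp12 (6.45% of all genes), 0 from dp12 to dp18 (0%), 0 from dp18 to Lac10 (0%) and 3 from V to Lac10 (7.24%). Within mutants it called 1 of 5 from V to dp12 (4.44%), 0 from dp12 to dp18 (0%), 0 from dp18 to Lac10 (0%) and 3 from V to Lac10 (2.88%). For the steps with no call, the unadjusted count was 0 from dp12 to dp18 in both genotypes, 2 from dp18 to Lac10 in wild type and 1 in mutants. Over all genes the shares at that threshold were 9.69% (wild type) and 13.7% (mutants) for the step to dp18, and 8% and 2.95% for the step to Lac10. Without Csn1s2b the calls from V to Lac10 were 2 of 4 in each genotype. All called casein genes were higher at the later stage. The casein median from V to Lac10 was 1.70 in wild type, where the median of all genes was 0.15, and 1.36 in mutants, where it was -0.18; without Csn1s2b the casein medians were 1.28 and 1.32. All 5 genes were higher at Lac10 than at V in both genotypes, also with each array centred on its median or on housekeeping genes, while the wild-type V to dp12 difference of Csn1s1 went from 0.39 to -0.09 with housekeeping centring, which moved the median of all genes by -0.48 in that step.

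Among the genes between prolactin and STAT5, the transcription factor gene Elf5 rose from V to dp12 in both genotypes, by 1.86 in wild type (adjusted p = 0.0268) and 1.75 in mutants (adjusted p = 0.0331). It was the only called member of the 12 tested in that step in either genotype, beside 5.91% and 3.02% of all genes called higher. Over the whole interval to Lac10, 3 of 12 rose in wild type, Elf5 by 2.21, Stat5a by 1.59 and the feedback inhibitor gene Cish by 1.31, and 0 of 12 passed in mutants. Among all genes 6.01% were called higher in wild type, and 2.88% were called in either direction in mutants. The difference between genotypes in that change was called for 0 of 12 genes, with a list median of -0.90 beside -0.44 for all genes, and Stat5a stood at -2.13 (adjusted p = 0.0562). With single arrays left out the list count to dp12 was 0 to 1 in each genotype, and the wild-type count to Lac10 was 2 to 4. Of all genes those fits called 0 to 904 to dp12 in wild type and 262 to 591 in mutants. To Lac10 they called 322 to 1033 in wild type. The prolactin receptor gene Prlr had no probe set with its symbol alone and was not measured here.

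At Lac10 the STAT5 gene Stat5a was lower in mutants by a log2 difference of -1.61 (SE 0.33, adjusted p = 0.0455, limma). It was the 1 of 12 signalling genes that passed, beside 0.236% of all genes. That call was lost without the 3 arrays of low correlation, at -1.16 (adjusted p = 0.149), in a fit that called 0 of all genes. It was also lost without wild-type Lac10 replicate 2 or 3 or mutant Lac10 replicate 2, with no filter on dim genes, with either centring, with a variance trend and with only the arrays of the compared groups, while the sign held. Stat5b, its close paralogue, was at -1.29 (SE 0.42, adjusted p = 0.131) and Elf5 at -1.42 (SE 0.46, adjusted p = 0.132). The Elf5 level was 9.40, 9.29 and 9.57 on wild-type Lac10 arrays and 8.60, 6.72 and 8.69 on mutant ones. These groups did not overlap, and the low mutant array was replicate 2, of low correlation. The list median at Lac10 was -0.61 against -0.19 for all genes, where the casein median was 0.13. Csn1s1, Csn2 and Csn1s2a lay 0.37 to 1.03 log2 units below the top of their arrays at Lac10, which limits what that casein median can show.

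Of 19 tested factors known to act on casein genes, 5 rose and 0 fell in wild type from V to dp12, among them the nuclear factor I genes Nfic by 1.13 and Nfix by 0.88 and the Wnt effector gene Tcf7l2 by 1.57. In the same step 0 rose and 1 fell in mutants, the progesterone receptor gene Pgr by -2.64, whose product opposes casein transcription. By Lac10, 4 rose and 1 fell in wild type against V, with the glucocorticoid receptor gene Nr3c1 at 1.18 and Pgr at -1.82. In mutants 0 rose and 2 fell, Pgr at -3.23 and Runx1 at -1.68. Of all 15234 genes, 901 were called higher (5.91%) and 82 lower to dp12 in wild type, and 460 (3.02%) and 217 in mutants. To Lac10 these were 915 (6.01%) and 188 in wild type, and 43 (0.282%) and 395 in mutants. More rises in wild type and more falls in mutants by Lac10 thus held for all genes too. Pgr was the 1 of 19 that passed between genotypes in virgins, where 0.0263% of all genes did. It was higher in mutants by 1.81 (adjusted p = 0.0464, limma). That call was lost without any of 4 of the 6 virgin arrays (adjusted p from 0.0759 to 0.323) and with either centring. It was also lost with a stricter filter on dim genes (adjusted p = 0.0539) and without the 2 arrays against their labels (adjusted p = 0.0960). At Lac10 0 of 19 passed, beside 0.236% of all genes. With single arrays left out the wild-type rises numbered 0 to 4 to dp12, the lowest without V replicate 2, and 0 to 3 to Lac10, the lowest without V replicate 3. Of all genes those fits called 0 to 904 to dp12 and 322 to 1033 to Lac10.

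Enzymes that phosphorylate, glycosylate and fold caseins changed in few members. Fam20c, the Golgi kinase of casein serines, rose from V to dp12 by 1.88 in wild type and 2.22 in mutants, and Fam20a, its activating partner, by 3.10 and 3.27. These were the only 2 of 25 tested genes called in that step in each genotype. Over all genes 5.91% were called higher in wild type and 3.02% in mutants, and 2 of 25 is near the wild-type share. Between V and Lac10, 3 of 25 rose in wild type, Fam20c by 2.75, Fam20a by 3.46 and the sialyltransferase gene St6galnac2 by 2.22. In mutants 0 rose and 1 fell, the chaperone cofactor gene Dnajb9 by -1.17. Of all 15234 genes, 915 were called higher and 188 lower over that interval in wild type, and 43 and 395 in mutants. With single arrays left out the wild-type rises were 0 to 2 to dp12 and 2 to 3 to Lac10, and the mutant falls to Lac10 were 0 to 9. Of all genes those fits called 0 to 904 and 322 to 1033 in wild type, and 64 to 1794 in mutants.

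Among genes that supply calcium to milk, 7 of 11 rose from V to Lac10 in wild type, where 6.01% of all genes were called higher, led by the phosphate transporter gene Slc34a2 by 5.81, the Golgi calcium pump gene Atp2c2 by 4.28 and Nucb2 by 2.00. In mutants 1 of 11 rose in that comparison, Slc34a2 by 3.66, where 0.282% of all genes were called higher. Leaving out single arrays gave 3 to 7 calls in wild type, the lowest without Lac10 replicate 2, and 0 to 2 in mutants. Of all genes those fits called 322 to 1033 in wild type and 64 to 1794 in mutants. From V to dp12 it was again Slc34a2, 1 of 11 in each genotype, at 3.05 and 3.19, beside 5.91% and 3.02% of all genes called higher. The list median of the genotype difference in the change from V to Lac10 was -1.22 beside -0.44 for all genes, and 0 of 11 passed that test.

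Of the other milk protein genes, 11 of 15 rose between V and Lac10 in wild type and 4 of 15 in mutants, beside 6.01% and 0.282% of all genes called higher. The list medians were 2.63 and 0.95, against 0.15 and -0.18 for all genes. With single arrays left out the counts were 9 to 10 in wild type and 1 to 5 in mutants. Of all genes those fits called 322 to 1033 in wild type and 64 to 1794 in mutants. Between the genotypes 0 of 15 passed as different in that change. The whey acidic protein gene Wap rose by 5.72 and 4.98, and the alpha-lactalbumin gene Lalba by 5.15 in wild type, against 3.39 in mutants that did not pass (adjusted p = 0.0686). The butyrophilin gene Btn1a1 rose by 4.34 and the lactoperoxidase gene Lpo by 3.13 in wild type. At Lac10 Lpo was the 1 of 15 that passed between genotypes, where 0.236% of all genes did. It was lower in mutants by -2.27 (adjusted p = 0.0481, limma), and all 15 had a lower mean in mutants. The median of all genes was also below 0 there, at -0.19, and the 36 genes called were all lower in mutants. The share of all genes with a lower mean was not counted. The Lpo call was lost without the 3 arrays of low correlation, at -2.03 (adjusted p = 0.175), and without wild-type Lac10 replicate 2 or 3 or mutant Lac10 replicate 2. It was lost too with no filter on dim genes, with either centring and with only the arrays of the compared groups.

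Wap, unlike Csn2, started low on the virgin arrays. Its level was 6.21, 5.83 and 6.06 in wild-type virgins, 8.45, 9.86 and 7.98 at dp12, 10.91, 11.46 and 10.99 at dp18 and 11.23, 11.93 and 12.12 at Lac10. The mutant levels were 5.45, 4.88 and 7.11 in virgins, 11.05, 10.01 and 8.98 at dp12, 10.65, 11.24 and 10.86 at dp18 and 9.69, 10.87 and 11.83 at Lac10. The V arrays lay below all later arrays in each genotype. Mutant V replicate 3 was the highest mutant virgin for Wap, for Csn2, Csn1s1, Csn1s2a, Csn1s2b and Csn3 and for Lalba, which stood at 11.12 there against 7.31 and 6.55 on the other mutant virgins.

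Marker lists of other cells were followed beside the caseins. In wild type from V to Lac10, 6 of 9 tested basal and myoepithelial markers rose, Cnn1 by 2.03, Actg2 by 1.86 and Myh11 by 1.94, and 2 of 7 fibroblast markers fell, Dpt by -1.75 and Dcn by -1.01. Of the luminal markers 1 rose, Elf5, and 2 fell, Foxa1 by -3.18 and Prom1 by -1.85, genes of hormone-sensing and progenitor luminal cells. In mutants 0 of 16 luminal markers rose and 4 fell over the same interval, with a list median of -1.77 beside -0.18 for all genes. Single arrays left out gave 2 to 14 falls, in fits that called 64 to 1794 of all genes. Of all 15234 genes, 915 were called higher and 188 lower over that interval in wild type, and 43 and 395 in mutants. The mean of 9 T and B lymphocyte markers ran from 5.51 to 8.08 in wild-type virgins and from 6.07 to 7.09 at Lac10, and 0 of 8 tested members passed in that comparison. Lymphocyte, endothelium, skeletal muscle, macrophage and neutrophil and adipocyte members called from V to Lac10 numbered 0, 0, 1, 0 and 2 in wild type. The muscle gene Myl1 fell by 1.32, and Cidea and Lep of the adipocyte list rose by 4.36 and 1.90. Cidea also followed the caseins closely, with a correlation of 0.90 with their mean profile. The wild-type means of Adipoq and Plin1 were lower at Lac10 (4.63 and 5.65) than at V (5.10 and 5.90). In mutants 1 of 10 adipocyte markers rose over that interval, and 8 rose without mutant Lac10 replicate 1. The fits with single arrays left out called 64 to 1794 of all 15234 genes in that comparison. The part of these cells in the casein changes was not tested.

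Luminal keratins were present on every array, which bears on the source of the RNA that the labels leave unnamed. Krt8 ran from 9.12 to 12.23 and Krt18 from 6.79 to 12.19. The myoepithelial marker Acta2 had group means between 11.33 and 12.39. Of the 10 adipocyte markers, Plin4, Pparg, Fabp4, Car3 and Cidea were above the array median on all 24 arrays and Plin1 on 22. Cidea followed the caseins, as given above. Lep was above the array median on 14 arrays, Retn on 11 and Cidec on 9. Adipoq, a defining adipocyte gene, was above the array median on 3 arrays, with group means of 4.50 to 5.10 in wild type. Its highest value was 7.61 on 1 mutant Lac10 array.

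The casein genes lie in a cluster on chromosome 5, and nearly all of their neighbours were dim on these arrays. In the RefSeq gene table of GRCm38.p6 the order is Csn1s1, Csn2, Csn1s2a, Csn1s2b and, after a stretch of other genes, Csn3. Between the outermost caseins lie 7 other genes, of which 4 have a probe set of their own, Prr27, Gm7337, Odam and 1700066N21Rik. With the 6 nearest named genes on each side this gave 16 neighbours. Of these, 15 did not pass the filter on dim genes, and 11 were above the array median on no array. Gm7337, a transcribed pseudogene between Csn1s2b and Csn3, passed with a level of 5.19 to 6.44. Its calls numbered 0 over the comparisons that give a difference, with a lowest adjusted p of 0.0968 in limma. The F test of equality over stages was not looked up for this gene.

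**Figure D4:**
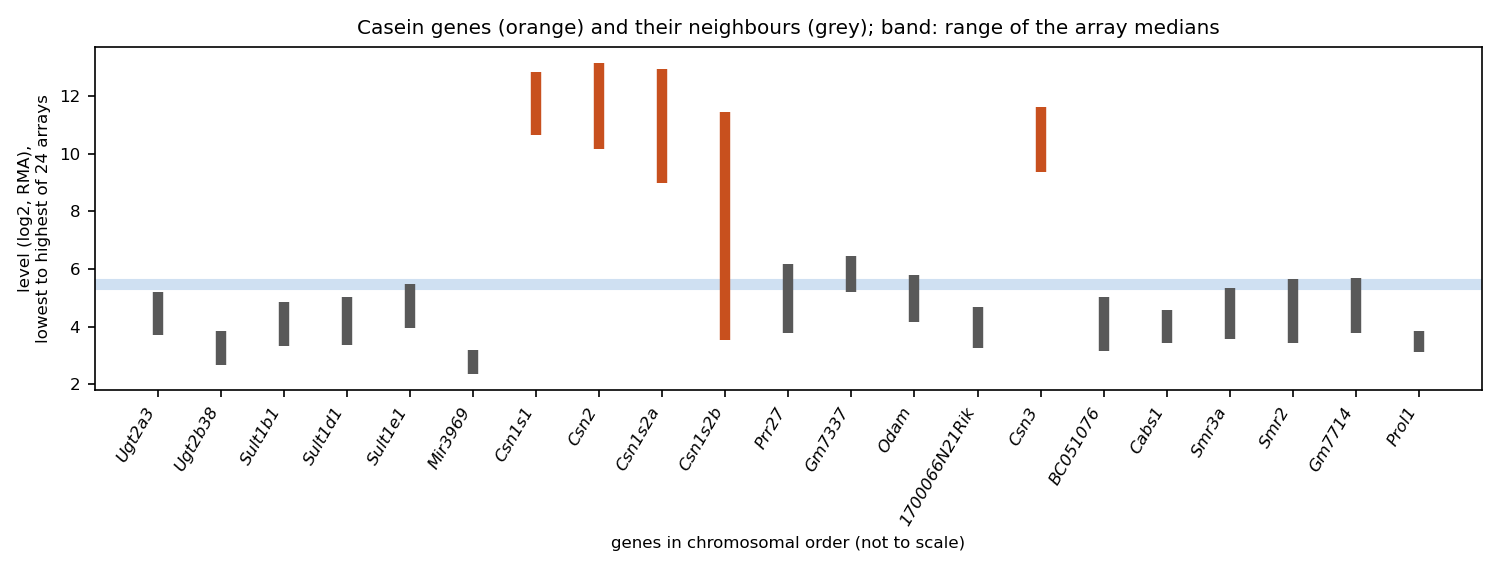
Lowest to highest log2 RMA level over the 24 arrays for the casein genes (orange) and neighbouring genes with a probe set of their own (grey), in chromosomal order and not to scale; the blue band is the range of array medians. Levels of different probe sets are not compared with each other, and each bar is read against the band: 15 of the 16 neighbours failed the filter on dim genes, while 4 casein genes lie above the band on all arrays.

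Across the 24 arrays the genes coding for the calcium-sensitive caseins Csn1s1, Csn2 and Csn1s2a moved together, and Csn1s2b moved less with them. The Pearson correlation was 0.96 for Csn2 with Csn1s2a, 0.90 for Csn1s1 with Csn1s2a and 0.90 for Csn1s1 with Csn2, against 0.48 for Csn2 with Csn1s2b. After each group mean was removed these were 0.96, 0.84, 0.82 and 0.03. Over the 18 arrays after the virgin stage Csn2 with Csn1s2a gave 0.82, and Csn2 with Csn3 gave -0.25, against 0.67 over all 24. These values describe arrays that share groups and normalization, and no test is attached.

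Among all genes tested, the mean of the 5 centred casein profiles was most like that of Wap, with a Pearson correlation of 0.91 over 24 arrays. The profiles were centred but not scaled, so Csn1s2b, with a range of 7.95, weighs most in this mean. Its own correlation with the mean was 0.90, against 0.74 for Csn3. Slc34a2 (0.91), Cidea (0.90), Lao1 (0.87), Slc39a8 (0.87), Cmpk2 (0.86), Folr1 (0.86), Coprs (0.86), Nudt12 (0.84) and Pigr (0.84) followed. Of these 10 genes, 1 was also in the top 10 over wild-type arrays alone and 4 over mutant arrays alone. The nearest genes of single caseins differed: Cutc, Wap and Zfp101 for Csn1s1, Lao1, Acta2 and Pdlim3 for Csn2, and Lao1, Wap and Pigr for Csn1s2a. Csn1s2b was nearest to Slc39a8 (0.94), Cidea (0.92) and Atp2b2 (0.89), and Csn3 to Pcx (0.95), Chrdl2 (0.94) and Gpd1 (0.93).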

How the data were processed

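The deposited values are log2 expression values made by the authors with RMA, per the submitters' processing notes, which give no version. RMA brings the arrays to one distribution, and a change common to most genes is lost. The array's genome build is not given in the sources used here. The platform annotation gives 1 symbol to 23521 of 41345 probe sets, more than 1 to 1814, and 16010 have none. Genes above the array median on at least 3 arrays, 15234 in number, were kept. Each was fitted with limma 3.58.1 (R 4.3.3), using every array and group means, with 16 residual and 4.35 prior degrees of freedom, moderated statistics and Benjamini-Hochberg adjustment at 0.05. The fit was tested on simulated data. The number of arrays limits the precision. No 2 arrays were identical. Replicates are numbered by title in wild type and by accession order in mutants.

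Named were the 5 caseins throughout, up to 3 called members of smallest p per list, Stat5a, Stat5b, Elf5, Wap and Lalba, the neighbours at the locus, and the nearest genes by correlation. The keratins, Olah, Adipoq, the group means of Acta2 and the arrays set apart were chosen after their values were seen. The members, lists, tests and alternatives were chosen with earlier results of these data known.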

Additional observations from a re-analysis of the deposited data

How the results depend on the processing

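No alternative reversed a called casein difference, and the filters on dim genes and centring on array medians changed no casein call. With housekeeping centring the caseins called from V to dp12 numbered 0 in wild type (0.978% of all genes) and 0 in mutants (19.7%). Csn1s2a was lost in wild type from V to Lac10, leaving 2 (10.4% of all genes). With an intensity trend in the variance, 2 were called from V to dp12 in mutants. Array weights, which raised the share of all genes called to as much as 63.9%, gave 1 call for genotype at V (Csn1s1), 1 at Lac10, 1 for equality over stages and 1 for the change from V to Lac10 (Csn3 each). They gave 2, 1, 2 and 5 in wild type from V to dp12, dp12 to dp18, dp18 to Lac10 and V to Lac10, and 4 in mutants from V to dp12. With only the arrays of the compared groups, 2 were called in wild type from V to dp12. In mutants Csn1s2a was lost from V to dp12 (limma adjusted p = 0.0843), and Csn1s1 and Csn1s2a from V to Lac10. The only gene called in either mutant comparison was Csn1s2b. It entered these fits only because it is high at later stages, so no support is drawn from its calls. With all arrays and no filter, its mutant V to dp12 difference did not pass (limma adjusted p = 0.705). Without the 3 arrays of low correlation, 2 of 5 were called in wild type from V to dp12, beside 41.2% of all genes. In mutants 3 of 5 were called in that step, beside 10.5% of all genes. Csn1s2a was lost in mutants from V to Lac10, leaving 2, beside 2.33% of all genes. Without the 2 arrays that went against their labels, 1 was called in wild type from dp18 to Lac10 (0.978% of all genes). It was Csn1s2b, whose own values set those arrays apart. Csn1s2a was lost in wild type from V to Lac10, leaving 2 (6.42% of all genes). With a replicate block on wild-type arrays the V to dp12 count was 2, as it was on the same arrays with no replicate block. After group means were removed, same-numbered arrays correlated between -0.39 and 0.31, with 4 of 18 pairs over 0.1. Arrays of other numbers gave -0.31 to 0.35, with 7 of 36 pairs over 0.1. With 3 arrays per group this cannot decide whether the numbers mark a pairing, and no label says what they mark. No casein has another probe set, so that alternative was not run.

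Leaving out single arrays gave 0 to 1 casein calls in wild type from V to dp12, 2 to 3 from V to Lac10 and 0 to 1 from dp18 to Lac10. In mutants it gave 0 to 3 from V to dp12 (262 to 591 of all genes) and 1 to 4 from V to Lac10 (64 to 1794 of all genes). For genotype at Lac10 (0 to 1390 of all genes) and for its change from V to Lac10 (0 to 3825) it gave 0 to 1. For the other comparisons it gave 0 to 0. The lowest mutant V to Lac10 count came without mutant V replicate 2 (0.420% of all genes called) or mutant Lac10 replicate 2 (0.453%). The highest came without mutant V replicate 3 (0.906%). The median SE of a single comparison was 0.30, and for Csn1s2b it was 1.13.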
